A study of Mus musculus with 2 samples.

Results

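Lrp2 (megalin), Cubn (cubilin), Amn (amnionless) and Dab2 were taken by symbol from the gene list of a single-cell RNA-seq series of the post-ischemic mouse kidney, 4 of 32285 listed genes. The series holds 2 libraries made with the 10x Genomics 5′ kit from dissociated kidney, each from 1 male C57BL/6 mouse of 9 weeks. Both mice had bilateral renal ischemia-reperfusion, and the kidneys were taken 24 h later. The control mouse was given saline into the peritoneal cavity just before reperfusion, and the other mouse was given JPI-289, an inhibitor of poly(ADP-ribose) polymerase, at 100 mg/kg by the same route. No uninjured kidney was analysed here, so each value below is a value of an injured kidney. With 1 library per group there is no test between the groups, no replicate spread and no p-value, and the difference between the mice cannot be told apart from that of treatment, dissociation or library. Cells, sub-clusters and segments of 1 library share their source and are not replicates.

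Megalin and cubilin are large receptors on the brush border of proximal tubule cells (PT), which take filtered proteins, vitamin carriers and hormones out of the urine. Cubilin has no membrane span of its own and needs amnionless to reach the surface, where the pair is often called cubam. Megalin and cubilin are taken up in clathrin-coated pits and recycled through apical endosomes, and Dab2 is an adaptor that binds the tail of megalin and links it to clathrin and to a myosin motor. Megalin carries the vitamin D binding protein into the cell, so that the enzymes that activate or inactivate vitamin D are met by their substrate there. Dab2 is also known as a gene of macrophages and endothelium, in contrast to the receptors.

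On the GRCm38 (mm10) build, all 4 members are annotated as protein-coding genes by GENCODE. Lrp2 (ENSMUSG00000027070) lies at chr2:69424340-69586065 on the minus strand and Cubn (ENSMUSG00000026726) at chr2:13276338-13491813 on the minus strand. Amn (ENSMUSG00000021278) lies at chr12:111271095-111276426 and Dab2 (ENSMUSG00000022150) at chr15:6299788-6440712, both on the plus strand. The 250 bases before a RefSeq start site (GRCm38.p6) are shown for each member, as a description. Lrp2 and Cubn were both far lower in the JPI-289 library and Amn and Dab2 were not, and the part of these bases in that was not tested. Each reads 5′ to 3′ on the strand of the gene and ends at the base before the start site. The coordinates are chr2:69586030-69586279 for Lrp2, chr2:13491877-13492126 for Cubn, chr12:111270846-111271095 for Amn and chr15:6386498-6386747 for the second of 2 start sites of Dab2. Capitals mark matches, on either strand, to the motifs searched.
Lrp2: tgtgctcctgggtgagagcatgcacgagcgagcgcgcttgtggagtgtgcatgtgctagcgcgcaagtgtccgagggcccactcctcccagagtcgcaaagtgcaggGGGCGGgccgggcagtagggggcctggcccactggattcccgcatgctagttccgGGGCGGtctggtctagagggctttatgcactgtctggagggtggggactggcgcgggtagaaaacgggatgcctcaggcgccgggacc
Cubn: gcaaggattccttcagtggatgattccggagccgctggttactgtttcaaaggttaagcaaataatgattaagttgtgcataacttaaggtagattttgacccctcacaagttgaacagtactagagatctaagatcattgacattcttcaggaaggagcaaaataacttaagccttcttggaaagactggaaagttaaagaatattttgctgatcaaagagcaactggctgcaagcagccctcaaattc
Amn: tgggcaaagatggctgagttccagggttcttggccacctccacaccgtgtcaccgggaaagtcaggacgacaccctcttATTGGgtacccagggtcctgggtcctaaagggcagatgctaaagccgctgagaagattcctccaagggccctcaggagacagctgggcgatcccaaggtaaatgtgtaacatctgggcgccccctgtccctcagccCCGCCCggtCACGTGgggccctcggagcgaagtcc
Dab2: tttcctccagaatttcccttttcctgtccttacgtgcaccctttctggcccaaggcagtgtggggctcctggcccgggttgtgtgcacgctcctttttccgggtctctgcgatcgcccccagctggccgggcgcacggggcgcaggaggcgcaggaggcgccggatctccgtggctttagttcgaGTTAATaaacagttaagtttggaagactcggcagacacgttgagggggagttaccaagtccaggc
The motifs, which share no overlapping matches here, were GTTAAT for HNF1, CAAAGTCCA for HNF4, CACGTG for the E-box, TATAAA for the TATA box, GGGCGG for the GC box and CCAAT for the CCAAT box. Lrp2 held the GC box 2 times, 143 and 88 bases before the start, and 32.7% of 32851 promoters of the same length held it. Amn held a GC box, a CCAAT box (held by 33.8% of promoters) and an E-box 26 bases before the start (held by 6.02%). The second Dab2 promoter held GTTAAT at 65 bases, as did 6.43% of all promoters, and the first held no match. Cubn held no match to any of these letters. The full HNF1 palindrome and a direct repeat of nuclear receptor sites were also searched at first and matched no member promoter. By composition, the Lrp2 window was rich in G and C (66.4%) and that of Cubn poor (39.6%), against a median of 52.4% over all promoters. The first Dab2 promoter had 36.8% and the second 60%, and the files do not tell which start the UMIs come from.

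The control library held 38328760 UMIs and the JPI-289 library 35548396. After calling and a filter on mitochondrial UMIs, 3753 control cells (median 2053 UMIs) and 5046 JPI-289 cells (median 1865.5) were kept, and 23 barcodes were found in both libraries. Clusters were built without the 4 members and without the endocytosis list described below, and were named from marker lists. PT-like cells numbered 1774 in the control library (8094453 UMIs, median 2298.5 per cell) and 1652 in the JPI-289 library (7334295 UMIs, median 1835). They came from 6 clusters, 3 mostly of each library, and at least 98.1% of the cells of each cluster were of 1 library. Those of the control library were led by Pck1, Slc22a6 and Slc5a12 and those of the JPI-289 library by Miox, Fgg and Kap. All 10 PT markers had UMIs in both libraries, but 6 of 10 were at least 2-fold lower in the JPI-289 library (median log2 ratio -1.55). Of 6 measured markers of injured PT, 5 were at least 2-fold higher (median 2.38). Vcam1, also on that list, was lower, but had too few UMIs to count as measured (16 in control and 2 with JPI-289). Of all measured genes, 23.5% were at least 2-fold lower and 9.16% at least 2-fold higher. The PT-like cells of the libraries thus also differed in markers of PT and injured PT, and the part of this difference in the results below was not tested.

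In PT-like cells, the receptors Lrp2 and Cubn were far lower in the JPI-289 library, Amn was slightly lower, and the adaptor Dab2 was higher. Levels are UMIs divided by all UMIs of the class and scaled to 1000000 (CPM), and the intervals are exact 95% counting intervals, which cover counting error only. Lrp2 had 3474 UMIs in the control library, a level of 429 CPM (415 to 444), and 448 UMIs in the JPI-289 library, a level of 61.1 (55.6 to 67.0). It was thus 7.02-fold lower with JPI-289, a log2 ratio of -2.81 (-2.96 to -2.67).

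Cubn had 988 control UMIs and 69 JPI-289 UMIs, levels of 122 (115 to 130) and 9.41 (7.32 to 11.9) CPM. This was 12.9-fold lower, a log2 ratio of -3.69 (-4.07 to -3.34). Its partner Amn, which escorts it to the membrane, had 939 and 596 UMIs, or 116 (109 to 124) and 81.3 (74.9 to 88.1) CPM. The Amn ratio was -0.51 (-0.66 to -0.36) on the log2 scale, 1.43-fold lower, so the intervals of the cubam partners did not overlap. Dab2 had 2945 UMIs in control and 4762 in JPI-289 cells, levels of 364 (351 to 377) and 649 (631 to 668), which was 1.78-fold higher (log2 ratio 0.84, 0.77 to 0.90).

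Against all genes with at least 20 UMIs in these cells, 2 of the 4 members were at least 2-fold lower and 0 at least 2-fold higher. Of 11299 such genes, 23.5% were at least 2-fold lower and 9.16% at least 2-fold higher, with a median log2 ratio of -0.19. Ranked by log2 ratio from the lowest, Cubn stood at percentile 1.63 and Lrp2 at 3.88 of these genes, Amn at 37.7 and Dab2 at 87.2. Centred on the median of all genes, Amn was at -0.32 and Dab2 at 1.03. Slc34a1, the phosphate transporter of the same brush border, was at -0.89 and Havcr1 (KIM-1), a surface marker of tubular injury, at 1.98. Of 7 markers of early PT 5 were at least 2-fold lower with JPI-289 (median -2.02), among them the transporters Slc5a12 (-5.93) and Slc22a6 (-2.08), while Slc5a2, the glucose transporter of the early tubule, was at -0.30.

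**Figure D1:**
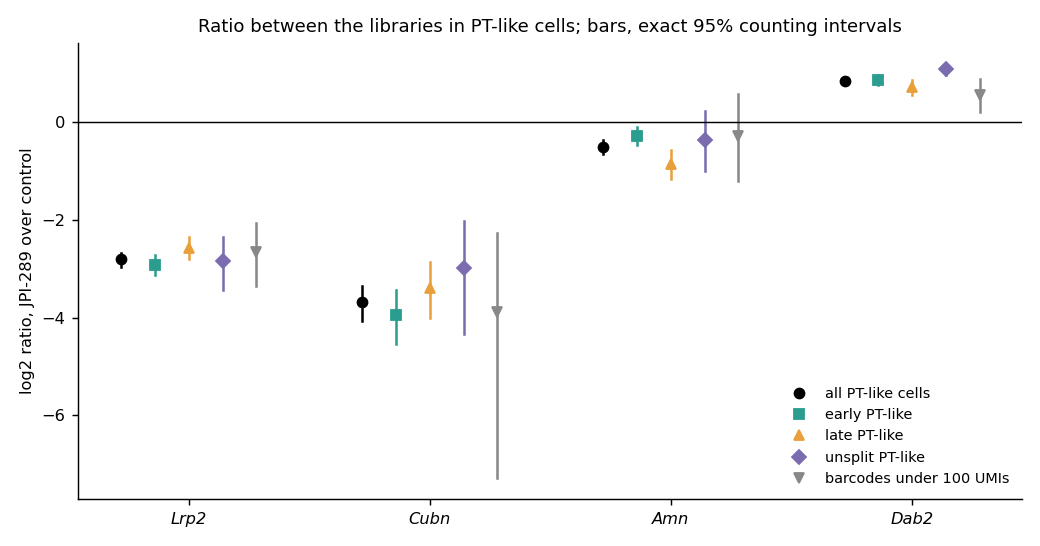
Log2 ratio of the level in the JPI-289 library over that in the control library (y axis) for each member (x axis), in all PT-like cells, in early, late and unsplit PT-like cells and in barcodes under 100 UMIs; bars are exact 95% counting intervals. Lrp2 lies between -2.92 and -2.57 and Cubn between -3.94 and -2.99 in all sets, Amn lies between -0.87 and -0.28 and Dab2 between 0.54 and 1.07.

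Lrp2 and Cubn were lower and Dab2 was higher with JPI-289 in each PT segment, whereas for Amn the interval in 1 segment held 0. Sub-clusters of each library were called early (S1/S2, the convoluted part), late (S3, the straight part) or unsplit from their segment markers. Scores were taken against the median of the sub-clusters of the same library, so the names are relative within each library. Within early cells, log2 ratios of the early markers between the libraries ran from -5.97 (Slc5a12) to 0.48 (Slc22a8). Whether cells of 1 name are the same segment in both libraries was not tested. Early cells numbered 785 in control and 528 in JPI-289, late cells 188 and 371, and unsplit cells 801 and 753.

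For Lrp2, the early level was 553 CPM (531 to 575) in control and 72.7 (63.4 to 83.0) with JPI-289, and the late level was 448 (417 to 481) and 75.1 (64.9 to 86.5). Its log2 ratios were -2.92 in early, -2.57 in late and -2.85 in unsplit cells. The higher early level in control rested on 1 sub-cluster rich in nuclear RNA, described below, without which the early level was 452 (431 to 474) in 581 cells, an interval that overlapped that of late cells. In the JPI-289 library the intervals of early and late cells overlapped as well. In unsplit cells, which could not be given a segment from their markers, the Lrp2 level was 144 (128 to 162) in control and 19.7 (13.6 to 27.5) with JPI-289.

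Cubn was 160 CPM (148 to 172) in early and 124 (108 to 142) in late control cells, against 10.2 (6.96 to 14.5) and 11.6 (7.84 to 16.6) in the JPI-289 library. Without the same sub-cluster the early control level of Cubn was 132 (120 to 144). The log2 ratios of Cubn were -3.94 in early, -3.39 in late and -2.99 in unsplit cells, where only 8 UMIs were left in the JPI-289 library. Lrp2 and Cubn were therefore at least 2-fold lower in 3 of 3 segments, where 26.9% of genes in early, 14.5% in late and 18.3% in unsplit cells were that much lower.

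The ratio of Amn differed between early and late cells by more than counting error. Its level was 151 CPM (140 to 163) in early control and 124 (112 to 137) in early JPI-289 cells, a log2 ratio of -0.28 (-0.47 to -0.10). In late cells it was 128 (111 to 146) and 70.1 (60.2 to 81.1), a log2 ratio of -0.87 (-1.16 to -0.58), and these intervals did not overlap. Without the early control sub-cluster rich in nuclear RNA, the early log2 ratio of Amn was -0.37 (-0.56 to -0.18). That interval came close to the one of late cells, so the difference between segments was then near the edge of counting error. In unsplit cells, with 59 and 39 UMIs, it was -0.37 (-1.0 to 0.23), so no direction was found beyond counting error. The median of all genes was at -0.29 in early and 0.10 in late cells, so the gap between segments is larger relative to it. Late cells also held more Havcr1 than early cells, at 372 against 50.7 CPM in control and 789 against 333 with JPI-289. The part of this in the Amn ratios was not tested.

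Dab2 was higher with JPI-289 in each segment, at 363 (345 to 381) against 656 (627 to 685) in early cells and 290 (265 to 317) against 474 (447 to 501) in late cells. In unsplit cells it was 428 (400 to 458) and 901 (857 to 947) CPM, a log2 ratio of 1.07 (0.95 to 1.19) whose interval did not overlap that of late cells (0.71, 0.56 to 0.86). Dab2 was thus at least 2-fold higher in 1 of 3 segments, where 12.2% of genes in unsplit, 7.8% in early and 17.2% in late cells were that much higher. Without the early control sub-cluster rich in nuclear RNA, the early control level of Dab2 was 279 (263 to 297) and its log2 ratio 1.23 (1.12 to 1.34), which then also passed 2-fold. Within the JPI-289 library its order was unsplit, early and late, with no overlap of intervals. Lrp2 and Amn were lowest in the unsplit cells of both libraries. In late cells, Lrp2 and Cubn were 5.95-fold and 10.5-fold lower with JPI-289. Of the 10 PT markers 4 were at least 2-fold lower and 1 higher in those cells, where 14.5% of all genes were that much lower and 17.2% higher. The median log2 ratio of these markers was -0.53, with values from -3.51 for Keg1 to 1.32 for Miox.

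Sub-clusters showed how far the members varied within a library. Over 8 control sub-clusters Lrp2 ranged from 122 to 1078 CPM and over 6 JPI-289 sub-clusters from 13.1 to 101, so that the libraries did not overlap. For Cubn the ranges were 31.3 to 304 and 3.95 to 12.4, again without overlap. Amn ranged from 24.8 to 169 in control and from 21.3 to 129 in JPI-289 sub-clusters, and Dab2 from 212 to 799 and from 462 to 919, so both overlapped. The lowest control sub-cluster for Lrp2 (122 CPM, from 187 UMIs) was therefore still above the highest JPI-289 one (101 CPM, from 33 UMIs). With so few UMIs this gap is within reach of counting error, for which no interval was taken here. The share of all genes whose ranges did not overlap was not counted. The lack of overlap thus does not set Lrp2 and Cubn apart from other genes.

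**Figure D2:**
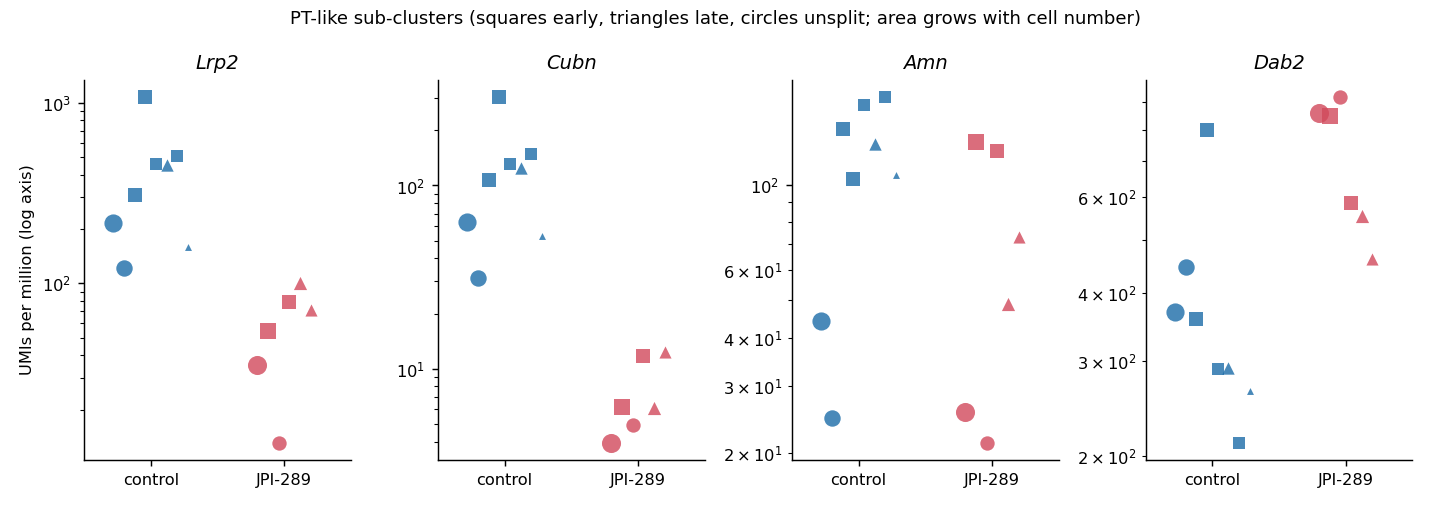
Level of each member in CPM (y axis, log scale) in every PT-like sub-cluster of the control (blue) and JPI-289 (red) library; squares are early, triangles late and circles unsplit sub-clusters, and the area grows with the number of cells. Lrp2 (122 to 1078 against 13.1 to 101) and Cubn do not overlap between the libraries, while Amn and Dab2 do. The share of all genes without overlap was not counted.

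The highest control sub-cluster for Lrp2, Cubn and Dab2 was an early one of 204 cells, in which the nuclear RNAs Neat1, Malat1 and Gm26917 made up 22.1% of the UMIs. PT-like cells with over 2% of their UMIs from these RNAs numbered 261 in control (14.7%) and 66 in the JPI-289 library (4.0%). In those cells, the log2 ratio of Lrp2 was -2.95 and that of Cubn -3.84, but Dab2 was lower with JPI-289, at 591 CPM (549 to 635) in control and 502 (449 to 558) in JPI-289, a log2 ratio of -0.23 (-0.43 to -0.05). In the PT-like cells with at most 2%, the log2 ratios were -2.64 for Lrp2, -3.50 for Cubn, -0.52 for Amn and 1.04 for Dab2. The sets rich in nuclear RNA were unlike in the libraries, with medians of 20.3% and 3.01% nuclear RNA, 3273 and 9342 UMIs and 2.27% and 19.4% mitochondrial UMIs per cell in control and JPI-289. The higher Dab2 level thus held in the cells poor in nuclear RNA, which were most PT-like cells of both libraries.

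Detection per cell gave the same picture at equal depth. At 1000 randomly kept UMIs per PT-like cell, with shallower cells dropped, 1334 control and 1138 JPI-289 cells remained. Of the control cells 30.9% (28.4 to 33.4) had an Lrp2 UMI, and of the JPI-289 cells 4.57% (3.43 to 5.95). Without thinning the shares were 49.5% and 15.8%.

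Cubn was found in 13.4% (11.6 to 15.4) of the thinned control cells and in 6 of 1138 JPI-289 cells (0.527%, 0.194 to 1.14). In neutrophil-like cells, which should lack the receptors, the thinned shares were 6.78% (control) and 1.89% (JPI-289) for Lrp2 and 1.13% and 0.172% for Cubn, among 177 and 582 cells with median depths of 1973 and 2035.5 UMIs before thinning. The Cubn share in JPI-289 PT-like cells and that in neutrophil-like cells of the same library (0.00435 to 0.954) overlapped, so at this depth Cubn detection per cell could not be told from background there. The Lrp2 share in JPI-289 PT-like cells stood above the neutrophil-like share, whose interval was 0.947 to 3.36.

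Amn was found in 9.60% (8.07 to 11.3) and 5.98% (4.67 to 7.51) of thinned PT-like cells, against 2.26% and 0.344% of neutrophil-like cells. Dab2 was found in 32.9% (30.4 to 35.5) and 48.5% (45.6 to 51.5), against 4.52% and 7.04% of neutrophil-like cells. Shares of cells, like levels, were therefore lower for the receptors and higher for Dab2 in the JPI-289 library.

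Within the thinned control PT-like cells, the receptors were found together. Cubn was found in 24.3% (20.2 to 28.7) of the 412 cells with an Lrp2 UMI and in 8.57% (6.84 to 10.6) of the 922 without one. Amn was found in 10.2% of cells with and 9.33% of cells without an Lrp2 UMI, and Dab2 in 36.2% and 31.5%, with overlapping intervals. With Cubn in place of Lrp2, the Dab2 intervals did not overlap. Dab2 was found in 42.5% (35.1 to 50.1) of the 179 cells with a Cubn UMI and in 31.4% (28.8 to 34.2) of the 1155 without. The Amn shares, 11.7% and 9.26%, again had overlapping intervals. Cells with 3 members made up 4.2% and cells with all 4 members 0.450% of the control cells, and in the JPI-289 library 1 cell of 1138 had 3 members and 0 had 4, which allows a share of up to 0.264%. In control PT-like cells with over 2% nuclear RNA the thinned shares were 62.7% for Lrp2 and 32.1% for Cubn, against 23.6% and 9.12% in the others, and the part of this in the pairing was not tested.

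Outside the PT, Lrp2 and Amn were not found above the level that free RNA gives in most named classes. Many of these classes held few UMIs of them. Dab2 was above that level in about as many classes as not. In the control library, PT-like cells held 48.4% of all UMIs of kept cells but 89.4% of Lrp2, 91.4% of Cubn and 94.5% of Amn UMIs, and 75.6% of Dab2 UMIs. In the JPI-289 library they held 41.0% of all UMIs and 70.4%, 77.5%, 85.5% and 72.8% of the members' UMIs, in the same order of genes. The level in PT-like over that in all other cells was 8.99-fold for Lrp2, 11.3-fold for Cubn, 18-fold for Amn and 3.30-fold for Dab2 in the control library. With JPI-289 these folds were 3.42, 4.87, 8.45 and 3.84. The other cells include those without a class name, which held 88 of the 188 Lrp2 UMIs and 14 of the 20 Cubn UMIs outside PT-like cells in that library. Over the named classes alone, a choice made after the data were seen, the JPI-289 folds were 5.82 for Lrp2, 13.9 for Cubn (from 6 UMIs outside PT), 13.1 for Amn and 5.02 for Dab2, and those of control were 9.51, 12.1, 18.7 and 3.12.

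**Figure D3:**
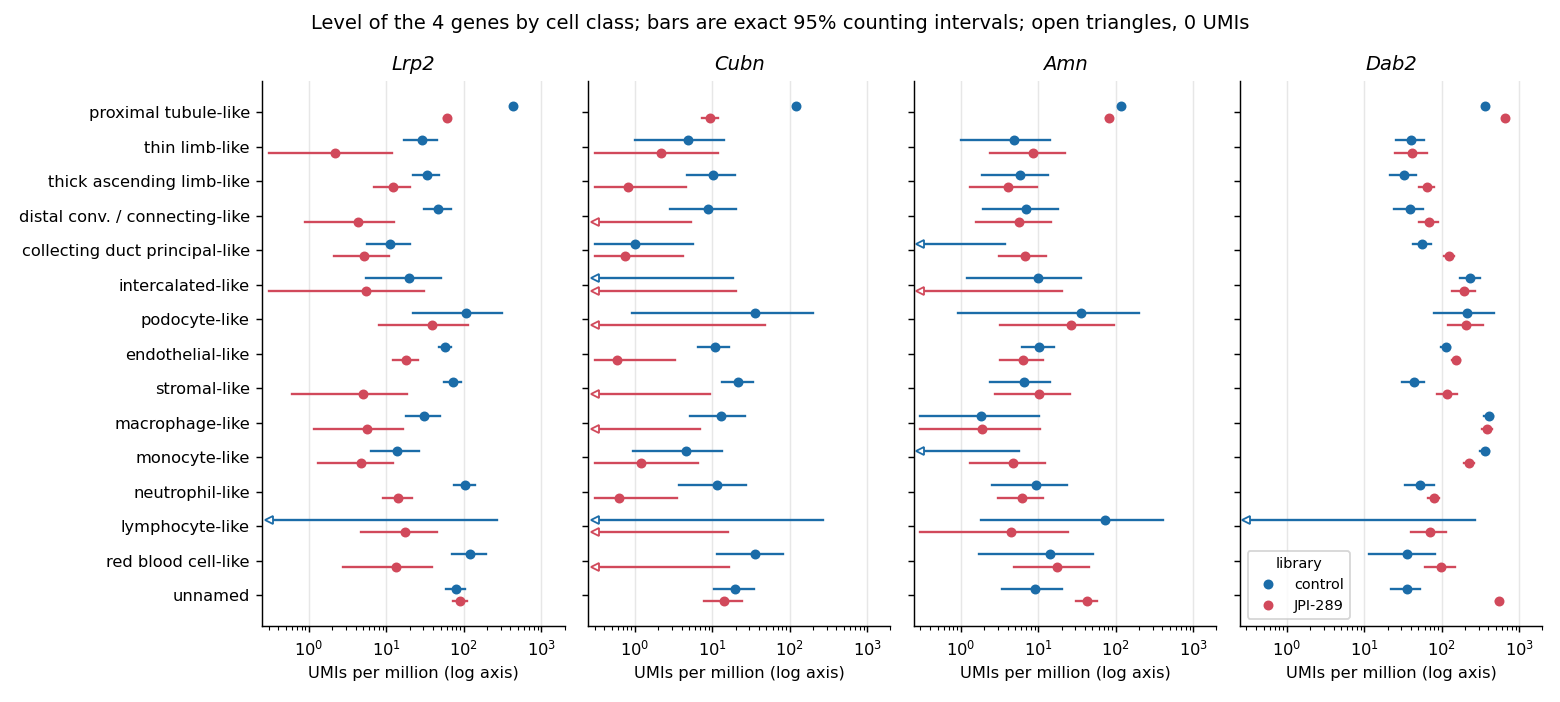
Level of each member in CPM (x axis, log scale) in every named cell class and in unnamed cells (y axis), in the control (blue) and JPI-289 (red) library; bars are exact 95% counting intervals and open triangles at the left edge mark 0 UMIs. Lrp2, Cubn and Amn are highest in PT-like control cells (429, 122 and 116), whereas the Dab2 intervals of macrophage-like (403), PT-like (364) and monocyte-like (359) control cells overlap.

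For Lrp2, the control level in named classes after PT-like cells was 119 CPM in red blood cell-like, 107 in podocyte-like and 103 in neutrophil-like cells, then 71.7 in stromal-like and 57.5 in endothelial-like cells. The lowest levels were in monocyte-like (13.9) and collecting duct principal-like cells (11.2), and lymphocyte-like cells had 0 of only 13757 UMIs, which allows up to 218 CPM. Red blood cells do not make these receptors, and the interval of their level (69.5 to 191) overlapped those of podocyte-like, neutrophil-like and stromal-like cells. In the JPI-289 library the named classes outside PT lay between 2.14 in thin limb-like cells, from 1 UMI, and 39.1 in podocyte-like cells, from 3 UMIs.

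Free RNA, read from the barcodes with fewer than 100 UMIs, had Lrp2 at 449 CPM in control and 69.8 in the JPI-289 library. Its log2 ratio between the libraries was -2.66 for Lrp2, -3.89 for Cubn, -0.29 for Amn and 0.54 for Dab2, with intervals that overlapped those of the PT-like cells. For each class, the UMIs to be had from free RNA were taken from its PT marker UMIs and the ratio of the member to PT markers in free RNA. The counting interval of observed over expected Lrp2 UMIs held 1 in 11 of 13 named classes in control and in 12 of 13 with JPI-289. It lay above 1 in stromal-like control cells (1.6, 1.24 to 2.04) and endothelial-like JPI-289 cells (1.65, 1.12 to 2.34) and below 1 in monocyte-like control cells (0.507). These intervals leave out the counting error of the free RNA itself, which held 198 and 24 Lrp2 UMIs and 47 and 2 Cubn UMIs. In all JPI-289 cells outside PT together, those without a class name included, Lrp2 was at 1.65 (1.43 to 1.91) times the expectation.

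For Cubn, 1 was inside the interval in 12 of 13 classes in control, the exception being stromal-like cells (2.05, 1.25 to 3.16). With JPI-289 the 2 Cubn UMIs of free RNA are too few to set an expectation. In that library 7 of 13 classes had 0 Cubn UMIs, which allows levels of up to 4.27 to 39.1 CPM depending on the class. For Amn, 1 was inside the interval in 13 of 13 classes of each library, and the highest level of a class with more than 2 UMIs was 17.7 CPM, in red blood cell-like JPI-289 cells. Many classes held few Amn UMIs, and free RNA itself held only 30 in control and 19 with JPI-289. In lymphocyte-like control cells, with 1 Amn UMI, the interval was 0.206 to 45.2. Intervals this wide would hold 1 over a large range of true levels, so they cannot show that a class lacks Amn. At this depth, Lrp2 and Amn in both libraries and Cubn in control were therefore not detected beyond free RNA in most named classes outside PT.

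Dab2 was above the free RNA expectation in 7 of 13 named classes in control and 6 of 13 with JPI-289. In macrophage-like cells it was at 403 CPM (352 to 460) in control and 386 (335 to 443) with JPI-289, which was 13.1 and 6.61 times the expectation. In monocyte-like cells it was at 359 (314 to 408) and 226 (195 to 260), 18.3 and 8.81 times the expectation. In control, PT-like, macrophage-like and monocyte-like levels of Dab2 over summed UMIs could not be ordered, as their intervals overlapped. At equal depth, a Dab2 UMI was found in 32.9% (30.4 to 35.5) of PT-like and 17.6% (9.47 to 28.8) of monocyte-like control cells. These intervals did not overlap, while that of macrophage-like control cells (27.4%, 18.7 to 37.5) overlapped both.

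Among the other epithelia, intercalated-like cells, the acid-base cells of the collecting duct, held Dab2 at 232 CPM (171 to 309) in control and 192 (134 to 268) with JPI-289, 8.25 and 4.61 times the expectation. Collecting duct principal-like cells held 55.8 (42.0 to 72.6) and 125 (107 to 145), or 8.47 and 3.34 times. Endothelial-like cells held 113 (98.5 to 129) and 154 (136 to 173), or 2.66 and 2.09 times. Thick ascending limb-like, distal convoluted and connecting tubule-like, neutrophil-like and red blood cell-like cells were at the expectation in both libraries, with Dab2 levels of 32.1, 38.3, 52.9 and 35.1 CPM in control. Thin limb-like and podocyte-like cells were above it in control alone (2.11 and 3.59 times), and stromal-like cells in the JPI-289 library alone (1.76 times), a difference between libraries that was not tested. The podocyte-like value (1.32 to 7.82) rests on only 6 UMIs in 17 cells.

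**Figure D4:**
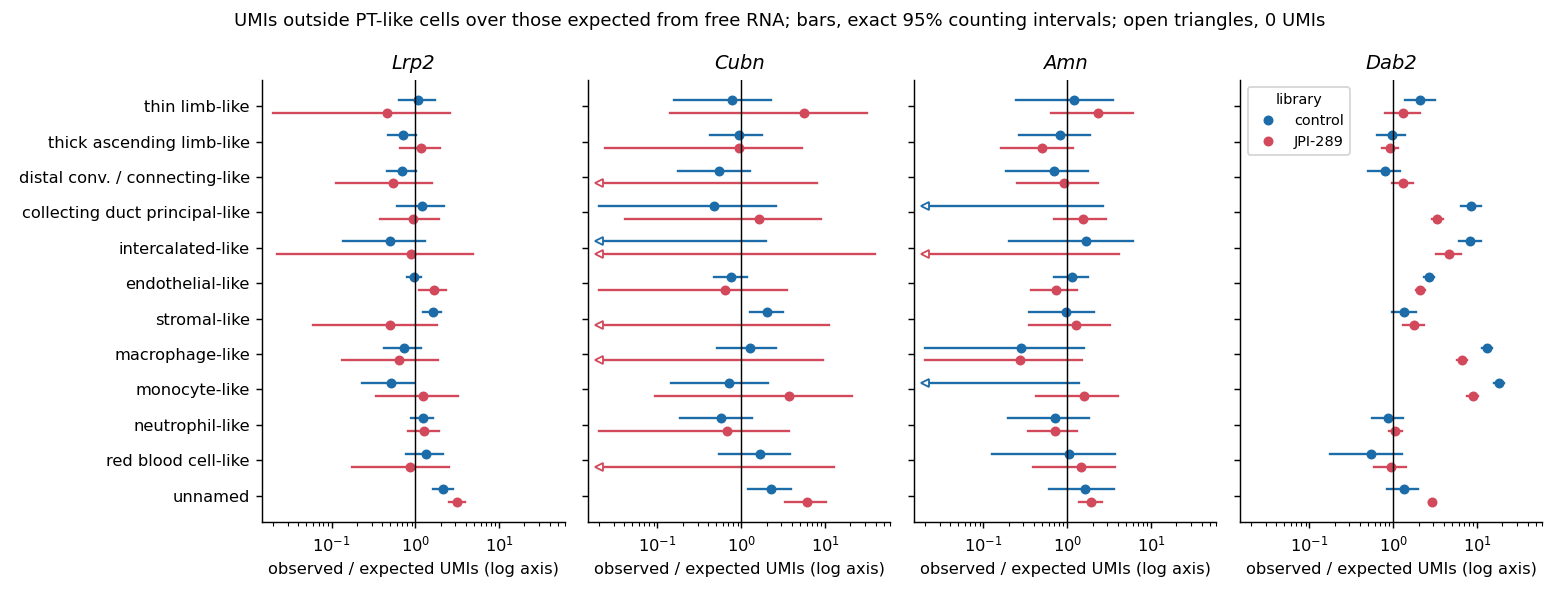
Observed UMIs of each member over those expected from free RNA (x axis, log scale; the vertical line marks 1) in each class outside the PT other than lymphocyte-like and podocyte-like cells, which are not drawn (y axis), in the control (blue) and JPI-289 (red) library; bars are exact 95% counting intervals of the observed UMIs and open triangles mark 0 UMIs. Dab2 lies well to the right of 1 in macrophage-like (13.1 and 6.61), monocyte-like, intercalated-like, principal-like and endothelial-like cells. The intervals of Lrp2 and Amn hold 1 in most classes, and many are wide because the UMIs are few. The Cubn values of the JPI-289 library rest on 2 free RNA UMIs.

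Over summed UMIs, the ratio of Dab2 between the libraries was not the same in all classes with a level above the expectation. It was 0.84 on the log2 scale in PT-like cells, -0.06 (-0.34 to 0.22) in macrophage-like cells and -0.67 (-0.95 to -0.39) in monocyte-like cells. Collecting duct principal-like cells were at 1.15 (0.72 to 1.63), endothelial-like cells at 0.45 (0.18 to 0.71) and intercalated-like cells at -0.27 (-0.95 to 0.39). These ratios are not corrected for free RNA, whose own Dab2 ratio was 0.54. Free RNA was expected to give 83.5 of 222 control and 126 of 264 JPI-289 UMIs in endothelial-like cells. In principal-like cells it was 6.49 of 55 and 50.3 of 168. The part of free RNA in the ratios was not tested. The sums weigh deep cells more. Median depths, control and JPI-289, were 8660 and 6160 UMIs in monocyte-like cells and 9166 and 1539 in principal-like cells. At 1000 UMIs per cell, monocyte-like cells held Dab2 at 235 and 223 CPM from 16 and 29 UMIs, a log2 ratio of -0.10 (-1.01 to 0.90). That interval holds both 0 and the ratio of the sums. These UMIs were thus too few to tell whether the lower monocyte-like level holds at equal depth. In thinned PT-like cells the log2 ratio was 0.91 (0.76 to 1.07).

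The genes around the receptors were read from a list of 78 genes in 5 roles, of which 75 were measured in PT-like cells. Of these, 19 were at least 2-fold lower and 3 at least 2-fold higher with JPI-289, a share of 25.3% and 4.0% against 23.5% and 9.16% of all genes, and the median log2 ratio was -0.26 against -0.19. As a whole, the list was thus near the background in genes that were lower, and its 3 higher genes are too few to set it apart from the background.

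**Figure D5:**
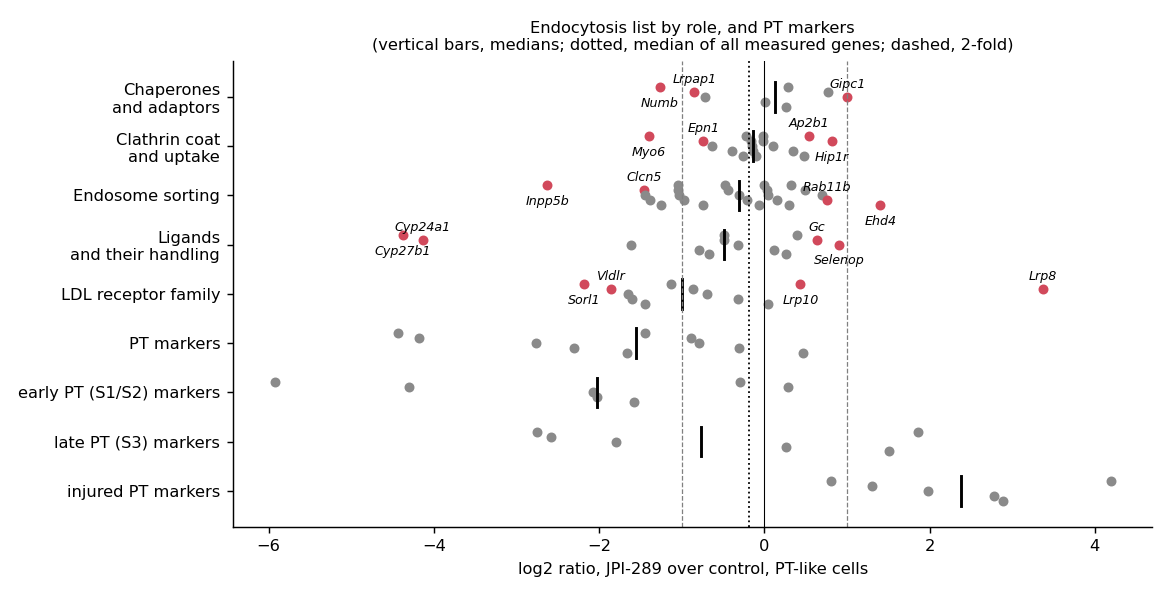
Log2 ratio of the level in PT-like cells, JPI-289 over control (x axis), for each measured gene of the endocytosis list by role and for the PT marker lists (y axis); black bars are the medians of each list, the dotted line is the median of all measured genes (-0.19), dashed lines mark 2-fold, and named genes are red. Clathrin genes gather near 0, while the LDL receptor family (median -1.0) and the PT markers (-1.55) lie to the left and injured PT markers (2.38) to the right.

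Among 8 chaperones and adaptors, 1 was at least 2-fold lower and 1 higher (median 0.13). These are shares of 12.5% and 12.5%, against 23.5% and 9.16% of all genes. Lrpap1, the chaperone that keeps megalin from binding ligands in the endoplasmic reticulum, was at 148 CPM in control and 81.9 with JPI-289 (log2 ratio -0.85, -0.99 to -0.71). Numb, an endocytic adaptor of Notch, was at -1.27 and Gipc1, which ties megalin to myosin VI, at 1.00. These adaptors therefore did not share a direction.

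Of the 17 genes of the clathrin coat, 1 was at least 2-fold lower and 0 were higher (median -0.14). The share of lower genes was 5.88%, against 23.5% of all genes. The lower one was Myo6, the myosin that pulls coated vesicles inward from the brush border, at 137 and 51.8 CPM (log2 ratio -1.4, -1.57 to -1.23). Epn1, an epsin of the coat, was at -0.74, Ap2b1, a subunit of the AP-2 adaptor, at 0.54 and Hip1r, which links clathrin to actin, at 0.82.

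Of 25 measured genes of endosome sorting, 8 were at least 2-fold lower and 1 higher (median -0.31). These are shares of 32% and 4%, against 23.5% and 9.16% of all genes. Inpp5b, a phosphoinositide phosphatase related to that of Lowe syndrome, was at 46.7 CPM in control and 7.50 with JPI-289 (log2 ratio -2.63, -3.07 to -2.23). Clcn5, the endosomal chloride/proton exchanger that is mutated in Dent disease with loss of low-molecular-weight proteins in urine, was at 62.4 and 22.6 (log2 ratio -1.46, -1.72 to -1.21). Rab11b, of the recycling endosome, was at 0.76 and Ehd4, an endosomal ATPase, at 1.4.

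Of 13 measured genes of ligands and their handling, 3 were at least 2-fold lower and 0 higher (median -0.49). The share of lower genes, 23.1%, was near the 23.5% of all genes. The largest differences were in both vitamin D hydroxylases. Cyp27b1, which activates 25-hydroxyvitamin D, had 930 control and 40 JPI-289 UMIs, or 115 and 5.45 CPM (log2 ratio -4.38, -4.89 to -3.94). Cyp24a1, which inactivates it, had 1117 and 57 UMIs, or 138 and 7.77 CPM (log2 ratio -4.14, -4.56 to -3.77).

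Enzymes of opposite effect on vitamin D were thus lower together in the JPI-289 library. Gc, the vitamin D binding protein, was at 0.63, and Selenop, the selenium carrier that is a ligand of megalin, was at 0.91 (625 and 1171 CPM).

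In the LDL receptor family, to which megalin belongs, 6 of 12 measured genes were at least 2-fold lower and 1 higher (median -1.0). These are shares of 50% and 8.33%, against 23.5% and 9.16% of all genes. Sorl1, a sorting receptor, was at -2.18 and Vldlr, the VLDL receptor, at -1.86. Lrp10 was at 0.44. Lrp8, the reelin receptor of neurons, had 12 UMIs in control and 117 with JPI-289, a log2 ratio of 3.37 (2.57 to 4.42), the opposite direction to that of Lrp2.

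Over the 11 classes with at least 50 cells in each library, both libraries together (22 points), the genes with levels most like those of each member were sought among 10215 genes by Pearson's r of log2(level + 10). This is a description, since points of a library share its free RNA and depth. For Lrp2 they were Cmbl (r 0.97), Tmem174 (0.97), Fmo1 (0.96), Pck1 (0.95) and Cyp24a1 (0.95). For Cubn they were Aspa (0.96), Slc16a4 (0.96), Adra2b (0.96), Tmem174 (0.96) and Cyp24a1 (0.95). The receptors' r with each other was 0.93, which placed Cubn at rank 17 for Lrp2 and Lrp2 at rank 15 for Cubn.

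For Amn the most like genes were Igsf11, Cda, Spink1, Acat3 and Slc17a1 (r 0.93 to 0.94), whose log2 ratios in PT-like cells lay between -0.43 and 0.19. Those of the genes most like Lrp2 and Cubn lay between -4.14 and -2.36. The PT-like cells of both libraries are among the points of r, so these ratios are in part fixed by the choice of genes. Cubn was at rank 405 for Amn, with an r of 0.62. For Dab2 they were Cndp2 (0.88), Dpp7 (0.80), Ftl1-ps1 (0.79), a ferritin pseudogene whose reads may be those of its parent, Creg1 (0.78) and Tpt1 (0.78). The r of Dab2 with Lrp2 was 0.04, over points that pool libraries in which PT-like Lrp2 and Dab2 differ in opposite directions.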

How the data were processed

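Single cells of 1 control and 1 JPI-289 post-ischemic kidney were profiled. The deposited values are unnormalized UMI counts of each gene in all barcodes, for which the authors used Cell Ranger 5.0.1 and mm10 per the labels, and empty droplets are still among them. The 4 members and all gene lists were chosen with earlier results of these data known.

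Barcodes were called as cells above 1/10 of the 99th percentile of the top 3000, or as barcodes of at least 500 UMIs that differed from the profile of ranks 45000 to 90000 (10000 simulations, false discovery rate 0.01). Cells over 50% mitochondrial UMIs were removed (546 control, 397 JPI-289). Cells were scaled to 10000 UMIs, log-transformed and clustered jointly with scanpy 1.11.5 and leidenalg 0.10.2 (2000 variable genes without the members and the endocytosis list, 30 components, 20 neighbours, resolution 1), with no correction between libraries. Scrublet marked 2 of 8799 cells as doublets and so did not work here, and doublets were not removed.

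Classes were given by the leading marker list at a mean log2 excess of at least 0.75 with 3 markers detected and a margin of 0.5 over other classes. These limits were chosen once the clusters were known. A cluster led by injured PT markers was named PT-like only where its PT score reached 0.75. Unnamed cells numbered 98 in control and 328 with JPI-289. UMIs were summed per class and library, and log2 ratios had 0.5 UMIs added to each sum and exact binomial intervals. On simulated counts with 200 of 11299 genes changed, the intervals for JPI-289 over control in PT-like cells held 94.5% of the true ratios of the changed genes. The counts were drawn with counting error alone, so this checks the calculation and says nothing of spread between cells or mice.

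The genes named are the members, per role the 2 highest and 2 lowest log2 ratios among genes with at least 100 UMIs, the 5 genes most like each member among those with at least 200 UMIs, and markers; 1 gene that the rule names is not reported here. Motifs, the limit of 2% nuclear RNA, and the values without unnamed cells, without the early sub-cluster and for Dab2 at equal depth were chosen after the data were seen. The public normal kidneys of the study were not used here. The alternatives tried were the first calling step alone, other limits on depth and mitochondrial UMIs, doublet scores, clustering settings, weights, scalings and the subtraction of free RNA.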

Additional observations from a re-analysis of the deposited data

Results flagged for a closer look

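Over summed UMIs, Dab2 had opposite ratios between the libraries in PT-like and monocyte-like cells. Its log2 ratio, JPI-289 over control, was 0.84 in PT-like and -0.67 in monocyte-like cells, and with 1 library per group the difference was not tested. At 1000 UMIs per cell the ratios were 0.91 (0.76 to 1.07) and -0.10 (-1.01 to 0.90). The monocyte-like interval holds both 0 and -0.67, so the direction in these cells could not be told at equal depth.

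Dab2 also differed in the cells without a class name, which were used above only among all cells outside PT. It was at 35.2 CPM (22.3 to 52.8) in 98 unnamed control cells and at 555 (510 to 604) in 328 unnamed JPI-289 cells, a log2 ratio of 3.95. Most of these cells, 69 and 301, formed 1 cluster led by the nuclear RNAs Snhg11, Neat1 and Gm26917. The others were in a cluster led by platelet markers (14 control and 24 JPI-289 cells) and in one led by urothelium markers (15 and 3). The part of this cell mix and of depth in the Dab2 ratio was not tested.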

How the results depend on the processing

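No paired analysis was possible because each group has 1 library and no test was made. Over 13 alternatives, the PT-like log2 ratio between the libraries lay between -3.08 and -2.62 for Lrp2, -4.44 and -3.50 for Cubn, -0.55 and -0.32 for Amn and 0.78 and 1.04 for Dab2, and kept its sign. Values outside the counting interval came with each cell counted equally (Lrp2 -3.08, Cubn -4.44, Dab2 0.93), with centring on the median of all genes (Lrp2 -2.62, Amn -0.32, Dab2 1.03) and, an alternative chosen after seeing the data, without cells over 2% nuclear RNA (Lrp2 -2.64, Dab2 1.04). The median of the endocytosis list lay between -0.36 and -0.07 over 14 alternatives. With a gene minimum of 100 or 5 UMIs in place of 20, 18.6% or 26.8% of all genes were at least 2-fold lower and 9.21% or 10.0% higher.

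The log2 excess of PT-like over all other control cells depended on shallow cells and free RNA. It was 4.36 for Lrp2, 4.38 for Cubn, 5.5 for Amn and 1.6 for Dab2 with the first calling step alone, 5.10, 5.18, 6.84 and 2.04 with free RNA subtracted, and 3.48 (Lrp2), 3.98 (Cubn) and 4.65 (Amn) with at least 1000 UMIs per cell. With each cell counted equally it was 1.92 (Lrp2), 2.11 (Cubn) and 2.38 (Amn), without the highest doublet scores 3.38 (Lrp2), and without cells over 2% nuclear RNA 1.51 (Dab2). Leaving unnamed cells out, chosen after seeing the data, kept the control values within their counting intervals.

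Shares of cells followed depth by construction. Thinned to 500 UMIs, control and JPI-289 shares were 17.2% and 1.94% for Lrp2, 6.65% for Cubn in control, 3.66% and 2.66% for Amn and 19.1% and 31.3% for Dab2. Without thinning they were 49.5% and 15.8%, 29.9% and 3.57%, 24.9% and 20.6%, and 59.2% and 69.2%. With free RNA from barcodes of at least 100 and under 300 UMIs, also chosen after seeing the data, Dab2 in control was 15.5 times its expectation in macrophage-like, 21.6 times in monocyte-like and 3.14 times in endothelial-like cells. Below 3 UMIs per class a gene could not be told from absent.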

Other observations

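In the unnamed cells of the JPI-289 library Lrp2 was at 89.9 CPM (72.1 to 111), above the PT-like level of 61.1 (55.6 to 67.0), and Cubn was at 14.3 (7.82 to 24.0), with an interval that overlapped that of PT-like cells. The Lrp2 level was 3.15 times that expected from free RNA. It did not exceed that of the PT-like cells of the library with over 2% nuclear RNA (111, 87.3 to 140) or of its highest PT-like sub-cluster (101). In unnamed control cells Lrp2 was at 79.5 (59.4 to 104), far below the control PT-like level of 429. Cells with over 2% nuclear RNA made up 93.6% of the unnamed JPI-289 cells and 72.4% of the unnamed control cells.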
